A study of Homo sapiens with 6 samples.

Results

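The family of miR-148a, miR-148b and miR-152 comprises miRNAs that carry the same seed, the bases with which a miRNA pairs to its target messages. Members were taken by name, as hsa-miR-148a-3p, hsa-miR-148b-3p and hsa-miR-152-3p (written below without the species prefix), from tables of exosomal small RNA. All 3 were present among the 503 mature miRNAs listed in each table. The exosomes were released by MDA-MB-231, a human cell line from a triple-negative breast carcinoma. Its stable clones expressed either a control short hairpin RNA (shNC) or one directed at MCU (shMCU), which encodes the channel-forming subunit of the mitochondrial calcium uniporter. Both groups were grown in DMEM with exosome-free bovine serum, with no further treatment. Each group had 3 libraries. The labels do not state whether these were separate cultures or clones, so the spread behind each p-value is that between libraries and may be technical.

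A miRNA guides Argonaute to messages that pair with its seed, and such messages are repressed, so members of a seed family share many predicted targets. This family is known for repressing the DNA methyltransferase DNMT1 and the immune-modulating antigen HLA-G, and miR-148a has been described as a suppressor of metastasis in breast carcinoma. It is also abundant in liver and in milk. The comparison addressed here was whether the high share of miR-148a-3p in 1 shMCU library was accompanied by equally high levels of its paralogs.

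The sequences are shown because the members are alike in the seed and differ in only a few bases, which is what tells their reads apart. They are RefSeq mature sequences on GRCh38.p14, 5′ to 3′, with bases 2 to 8, the seed, in capitals.
miR-148a-3p: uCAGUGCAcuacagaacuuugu
miR-148b-3p: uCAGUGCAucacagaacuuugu
miR-152-3p: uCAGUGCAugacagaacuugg
The seed was identical in all 3, and no other of the 445 listed miRNAs that could be matched to a RefSeq mature sequence carried it. Positions are counted from 1 at the 5′ end. From miR-148a-3p to miR-148b-3p the changes were C9U and U10C, so 20 of 22 bases were the same. From miR-148a-3p to miR-152-3p they were C9U, U10G and U20G over the 21 bases compared, and from miR-148b-3p to miR-152-3p they were C10G and U20G. The mismatch setting of the authors' alignment is not given in the sources used here. A few bases lost at an end would alone leave the members distinct, since each pair also differs near the middle. A read with sequencing errors at the differing bases could be assigned to the wrong member, so the separate counts of the lower members are uncertain.

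The members come from separate hairpins on different chromosomes. The hairpins are printed with the mature member in capitals, because the member lies on the 3′ arm of each.
MIR148A: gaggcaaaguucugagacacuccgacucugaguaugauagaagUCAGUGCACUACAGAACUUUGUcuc
MIR148B: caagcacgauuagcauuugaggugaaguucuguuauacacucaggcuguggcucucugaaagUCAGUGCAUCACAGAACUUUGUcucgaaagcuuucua
MIR152: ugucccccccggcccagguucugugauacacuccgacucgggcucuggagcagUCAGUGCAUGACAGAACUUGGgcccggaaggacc
On GRCh38, MIR148A lies at chr7:25949919-25949986 on the minus strand, with no annotated host gene on that strand in GENCODE release 29. MIR148B lies at chr12:54337216-54337314 on the plus strand, in an intron of COPZ1 and of the overlapping AC078778.2. MIR152 lies at chr17:48037161-48037247 on the minus strand, in an intron of COPZ2. COPZ1 and COPZ2 encode paralogous subunits of the coatomer, the coat of vesicles that move between Golgi and endoplasmic reticulum. No member shares a transcription unit with another in this annotation.

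Totals were 11563 to 19884 counts in 5 libraries and 47863 in shNC replicate 1, and in the shallowest library 1 count corresponded to 86.5 CPM (counts relative to the library's sum, put on 1 common scale). The library of shMCU replicate 3 stood apart, with a first principal component score of 6.11 where the other 5 ran from -2.73 to 1.11. The fitted fold changes of miR-148a-3p and miR-148b-3p, the ratio between them and the family's share of counts are therefore given with and without it. Comparisons of patterns, shares within the family and sums of counts over libraries include it. Each pair of libraries of a group differed by more than sampling noise (chi-square per degree of freedom of 4.62 to 36.04). Of the 4 miRNAs typical of basal-like lines that were looked up (miR-21-5p, miR-100-5p, miR-221-3p and miR-222-3p), all had counts in both groups, with a summed level of 256319 CPM in shMCU replicate 3 and 319208 to 364102 CPM in the others. MCU itself is not measured by small RNA libraries, so the knockdown could not be checked.

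miR-148a-3p made up nearly all of the family in these exosomes, and its level in shMCU replicate 3 stood far above its other values. The shNC libraries held 1890, 709 and 1191 counts in the order of replicates 1, 2 and 3, and the shMCU libraries 573, 1106 and 2065 in that order. As shares of all counts these were 3.95%, 6.13% and 5.99% in shNC, and 4.43%, 7.53% and 16.1% in shMCU. The groups overlapped, since shMCU replicate 1 lay below shNC replicates 2 and 3 while the other 2 of 3 shMCU libraries lay above all of shNC, and shMCU replicate 3 was the highest of the 6. In that library miR-148a-3p was the most abundant of all miRNAs listed, ahead of miR-21-5p at 114939 CPM, whereas it ranked between 4 and 6 in the other libraries. The exact 95% binomial interval of the share in shMCU replicate 3 was 15.4% to 16.7%, and that of the next library, shMCU replicate 2, was 7.11% to 7.97%. These and all later intervals on counts cover counting error only.

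miR-148b-3p was a mid-abundance miRNA, at 2784 to 4122 CPM. Replicates 1, 2 and 3 of shNC held 148, 35 and 76 counts, and those of shMCU 36, 43 and 53. The corresponding levels were 3092, 3027 and 3822 CPM in shNC, and 2784, 2927 and 4122 CPM in shMCU. The highest value was again in shMCU replicate 3, but the next, in shNC replicate 3, lay within its interval of 3089 to 5388 CPM. The groups overlapped, with the lowest and the highest library both in shMCU, and each of the other 5 libraries had an interval that overlapped that of shMCU replicate 3. With the scaling of library sizes used in the group comparison below (TMM), the step into shMCU replicate 3 was larger. miR-148b-3p was then at 5028 CPM there and at 2644 to 3719 CPM in the others. On the same scale miR-148a-3p was at 195892 CPM there and at 35156 to 81169 CPM in the others. miR-148b-3p ranked between 28 and 39 by abundance, so the order of miR-148a-3p over miR-148b-3p held in all 6 libraries. CPM of mature miRNAs are set side by side here without scaling by length, since a read covers the whole molecule and the members are 21 or 22 bases long. Ligation to adapters can favour some sequences over others.

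miR-152-3p was at the edge of detection. Replicates 1, 2 and 3 of shNC held 12, 2 and 1 counts, and those of shMCU 4, 3 and 3. The levels were 251, 173 and 50.3 CPM in shNC, and 309, 204 and 233 CPM in shMCU, with shMCU replicate 3 in the middle of the range. Its interval there, 48.1 to 682 CPM, covers all the other values, so a difference of that size between libraries was not detectable at this depth. It lay below miR-148b-3p in all 6 libraries, and in each library their exact intervals did not overlap.

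**Figure D1:**
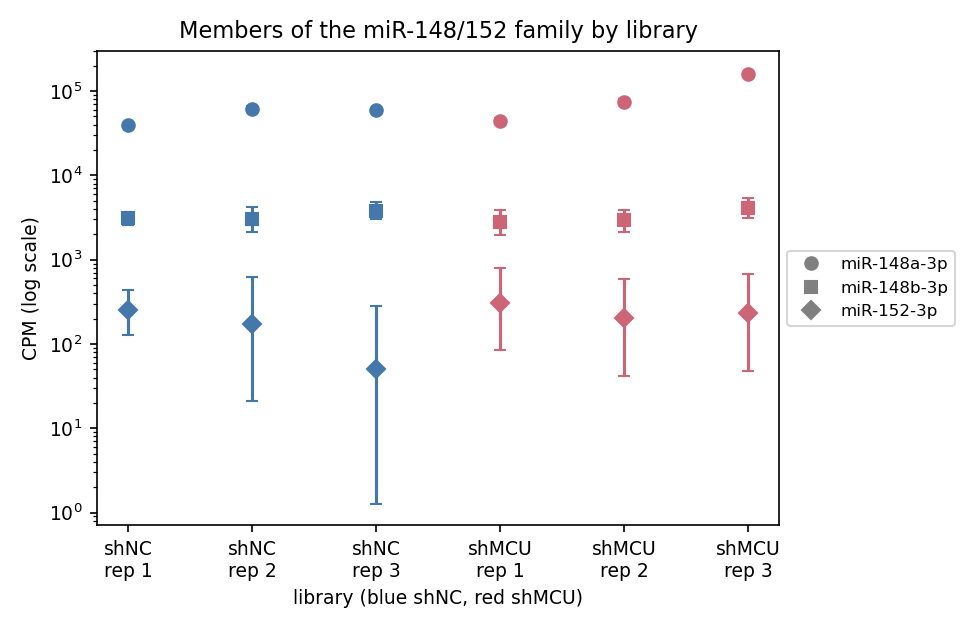
Levels of the 3 family members in each library, in CPM on a log scale, with exact 95% binomial intervals (within the symbol where not visible). Blue marks shNC and red shMCU libraries; the order miR-148a-3p, miR-148b-3p, miR-152-3p is the same in all 6, and miR-148a-3p is highest in shMCU replicate 3 at 160588 CPM.

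The members summed to 5.70% ± 1.23 (SD, n = 3) of each shNC library's counts and to 9.69% ± 6.09 of each shMCU library's. The difference of 3.99 percentage points was 0.587 points without shMCU replicate 3 and 6.46 points without shMCU replicate 1. Without miR-148a-3p, the rest of the family took between 0.309% and 0.435% of counts in any library. Within the family, miR-148a-3p made up 93.7% ± 1.43 (SD, n = 3) of counts for shNC and 95.6% ± 1.97 for shMCU. Its part was lowest in shNC replicate 1, at 92.2% (exact 95% interval 90.9% to 93.3%), and highest in shMCU replicate 3, at 97.4% (96.6% to 98.0%). These are shares of sequenced counts, so more molecules of a member and fewer of the other miRNAs cannot be told apart, nor can more exosomes and more miRNA per exosome.

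In the comparison of groups, miR-148a-3p had a fitted fold of 2.13 and miR-148b-3p of 1.16, and neither passed the test. Counts were fitted with edgeR's quasi-likelihood test over the 79 miRNAs that passed its filter on low counts, with TMM scaling of library sizes and Benjamini-Hochberg adjustment over all 79. Of the 3 members, 2 passed that filter, and miR-152-3p did not. The mean level of miR-148a-3p was 53567 ± 12214 CPM for shNC and 93394 ± 60216 CPM for shMCU (SD, n = 3 each). Its log2 fold change (shMCU minus shNC) was 1.09 ± 0.54 (SE), the 95% interval of the fold was 0.876 to 5.16, and the adjusted p was 0.70 (unadjusted p = 0.084, rank 7 of 79). Leaving out shMCU replicate 3 brought the log2 fold change to 0.28 (adjusted p = 0.99), and leaving out shMCU replicate 1 brought it to 1.44 (adjusted p = 0.16), both by edgeR. Weighting libraries by quality in limma voom gave 0.66.

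For miR-148b-3p the mean level was 3314 ± 442 CPM for shNC and 3278 ± 734 CPM for shMCU (SD, n = 3 each). Its fitted log2 fold change was 0.22 ± 0.30 (SE), the 95% interval of the fold was 0.725 to 1.86, and edgeR's adjusted p was 0.86. The sign was not stable, since the log2 fold change was -0.018 with library totals in place of TMM and -0.13 without shMCU replicate 3. The TMM factor was lowest for shMCU replicate 3, at 0.820, and highest for shNC replicate 1, at 1.12. With TMM, the log2 fold changes of the 79 miRNAs had a median of -0.02, and with library totals alone of -0.23. The number of family members called was 0 of 2 tested, beside 0 of all 79 (0%); at an unadjusted p under 0.05 it was 0 of 2 beside 3 of 79 (3.8%). DESeq2 called 1 of the 79 at an adjusted p of 0.05 and 3 at an unadjusted p under 0.05. The 1 called was no member, and miR-148a-3p had an adjusted p of 0.51 and an unadjusted p of 0.019 in DESeq2. Its unadjusted p was also under 0.05 by edgeR without a filter (0.0054), with a replicate block (0.032) and without shMCU replicate 1 (0.0054), and its adjusted p in these was 0.68, 0.77 and 0.16. All of these fits include shMCU replicate 3, the library singled out for its miR-148a-3p share, so the p-values of miR-148a-3p are descriptions. Without that library its unadjusted p by edgeR was 0.38. Both tested members had shMCU levels that overlapped those of shNC, while 9 of the 79 miRNAs (11.4%) did not overlap.

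For miR-152-3p only counts can be compared. Summed over libraries, 15 of 79310 counts in shNC and 10 of 40481 in shMCU gave a ratio of shares of 1.31, with an exact 95% interval of 0.525 to 3.11. Of the 15, shNC replicate 1 contributed 12, and the ratio was 2.59 without that library. With the filter on low counts removed, edgeR fitted a log2 fold change of 0.48 ± 0.73 (SE) and gave an adjusted p of 0.78.

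**Figure D2:**
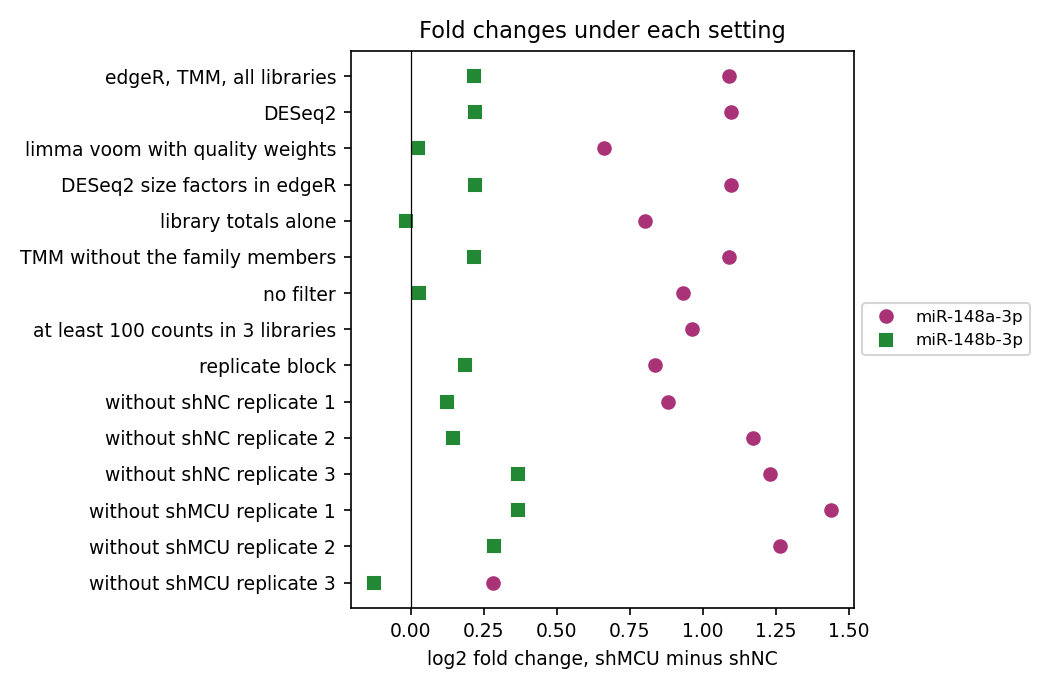
Fitted log2 fold changes (shMCU minus shNC) of miR-148a-3p (circles) and miR-148b-3p (squares) in the test as described and under each other setting; miR-148b-3p was below the stricter filter and has no point there. miR-148a-3p stays to the right of miR-148b-3p in each setting that fitted both, and both move towards or past 0 without shMCU replicate 3.

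The paralogs can be compared within each library, where no scaling between libraries enters. There were 12.8, 20.3 and 15.7 counts of miR-148a-3p per count of miR-148b-3p in shNC replicates 1, 2 and 3, and 15.9, 25.7 and 39.0 in shMCU replicates 1, 2 and 3. Exact 95% intervals were 29.7 to 52.2 in shMCU replicate 3 and 19.0 to 35.7 in shMCU replicate 2. In the remaining libraries the upper limits lay below 29.7, with the highest, 29.3, in shNC replicate 2. The highest ratio was in shMCU replicate 3, a library singled out for its miR-148a-3p share, which is the numerator here, so its value is a description. shMCU replicate 1 fell among the shNC libraries, so the groups overlapped.

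The mean log2 ratio was 3.98 ± 0.33 for shNC and 4.64 ± 0.65 for shMCU (SD, n = 3 each). The difference of 0.65, a factor of 1.57, was about the size of the larger SD (two-sided exact permutation test, p = 0.2, adjusted p = 0.6 over the 3 member pairs). Single shMCU libraries differed from single shNC libraries by -0.35 to 1.60 on the log2 scale, and the difference of means was 0.34 without shMCU replicate 3. With 3 libraries in each group the smallest p of this test is 0.1, so no difference could have passed 0.05. The test also includes the library singled out for its miR-148a-3p share, so its p is a description and decides nothing.

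The ratios that involve miR-152-3p rest on 1 to 12 counts of that member in a library. Counts of miR-148a-3p per count of miR-152-3p were fewest in shMCU replicate 1, at 143, and most numerous in shNC replicate 3, at 1191. The log2 ratio differed by -0.17 between groups (exact permutation test, two-sided p = 0.8, adjusted p = 0.8), and the sign turned when shNC replicate 3 or shMCU replicate 1 was left out, to 0.47 and 0.41. Counts of miR-148b-3p per count of miR-152-3p were 9.0 in shMCU replicate 1, the lowest, and 76.0 in shNC replicate 3, the highest, and their log2 ratio differed by -0.83 (exact permutation test, two-sided p = 0.5, adjusted p = 0.75). Without shNC replicate 3, where miR-152-3p had 1 count, that difference was -0.17.

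**Figure D3:**
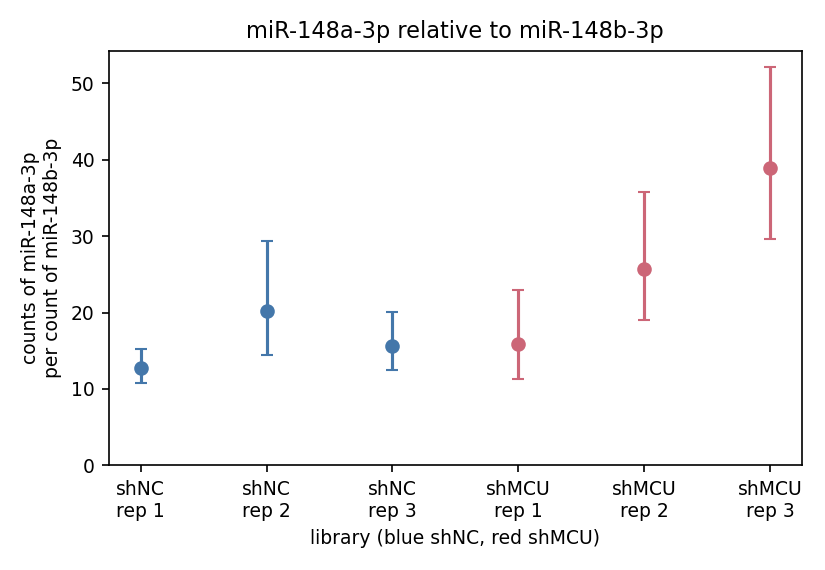
Counts of miR-148a-3p per count of miR-148b-3p in each library, on a linear axis from 0, with exact 95% intervals; blue marks shNC and red shMCU. The ratio is 39.0 in shMCU replicate 3 and 12.8 to 25.7 in the other 5 libraries, with shMCU replicate 1 among the shNC values.

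The size of the step into shMCU replicate 3 differed between members. Relative to the median of the other 5 libraries, miR-148a-3p was 2.68 times as high there (2.58 to 2.79, from the exact interval of its count alone), miR-148b-3p 1.36 times (1.02 to 1.78) and miR-152-3p 1.14 times (0.236 to 3.34). These ratios describe a library that was singled out for its miR-148a-3p share, so they carry no test. Among the 79 tested miRNAs, whose median was 0.803, miR-148a-3p was 3rd and miR-148b-3p 14th in this ratio. A ratio of at least 2 was reached by 6 of the 79 (7.59%), miR-148a-3p among them, and one of at least 1.2 by 19 (24.1%), both tested members among them. Both members had their highest CPM in this library, as did 9 of the 79 (11.4%).

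Against shMCU replicate 2 of the same group, shMCU replicate 3 had 2.13 times the miR-148a-3p and 1.41 times the miR-148b-3p, in CPM. Between shMCU replicates 1 and 2, the step was 1.70 for miR-148a-3p and 1.05 for miR-148b-3p. The order of libraries was also not the same. shMCU replicate 2 was 2nd highest for miR-148a-3p and 2nd lowest for miR-148b-3p, although the intervals of miR-148b-3p in the lower libraries overlapped.

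**Figure D4:**
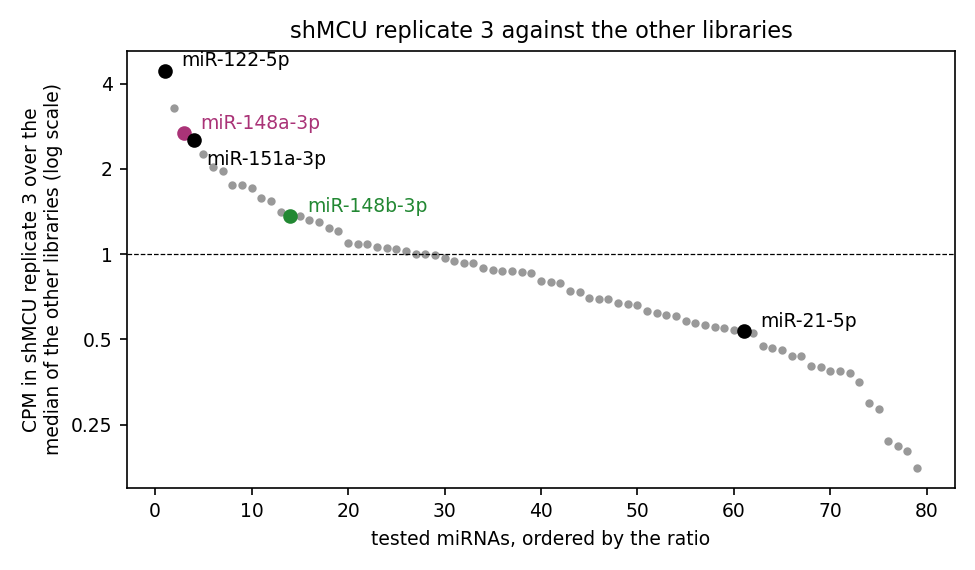
CPM in shMCU replicate 3 divided by the median of the other 5 libraries, on a log scale, for each of the 79 tested miRNAs in descending order. miR-148a-3p (2.68) is 3rd and miR-148b-3p (1.36) 14th, while miR-21-5p lies at 0.535 and the median miRNA at 0.803.

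The miRNA whose pattern over the 6 libraries was most like that of miR-148a-3p was no paralog. Likeness was the root mean square difference of log2 CPM (TMM-scaled, prior count of 2) after centring each miRNA on its mean. The closest, at 0.22, was miR-151a-3p, whose hairpin lies within the kinase gene PTK2, and next came miR-140-3p at 0.39. They were followed by miR-183-5p and miR-182-5p, which derive from a common cluster, at 0.46 and 0.49. miR-148b-3p was 5th of 78 at 0.54, where the median miRNA was at 0.87. In shMCU replicate 3 the centred log2 CPM was 1.58 for miR-148a-3p, 1.31 for miR-151a-3p and 0.61 for miR-148b-3p. In the opposite direction, miR-148a-3p was 44th of 78 in likeness to miR-148b-3p, at the same 0.54 beside a median of 0.51. This measure counts the size of swings as well as their direction, and those of miR-148b-3p were smaller. Both members were below their means in shNC replicates 1 and 2 and shMCU replicate 1, and above in shMCU replicate 3. Their signs differed in shNC replicate 3 (-0.16 for miR-148a-3p, 0.18 for miR-148b-3p) and shMCU replicate 2 (0.31 and -0.05). The closest to miR-148b-3p were miR-182-5p at 0.21, miR-192-5p and let-7i-5p at 0.23, and miR-629-5p and let-7f-5p at 0.24. These distances include shMCU replicate 3, the library singled out for its miR-148a-3p share, and were not computed without it. They are descriptive, and all miRNAs of a library share its depth and scaling.

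**Figure D5:**
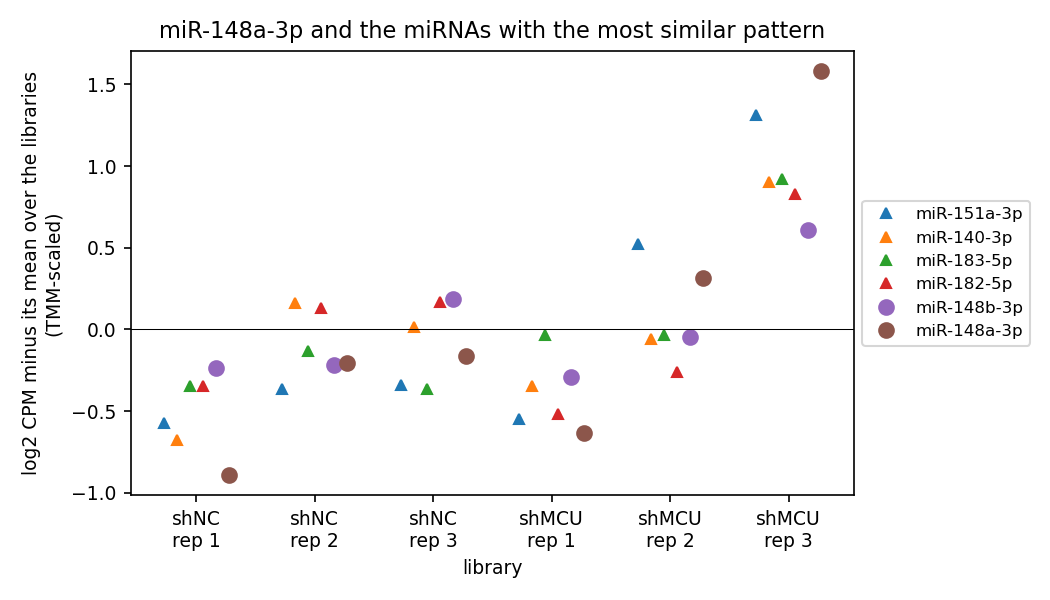
Log2 CPM (TMM-scaled) minus its mean over the 6 libraries for miR-148a-3p, miR-148b-3p (circles) and the other miRNAs closest to miR-148a-3p (triangles), with points of a library set side by side. In shMCU replicate 3, miR-148a-3p is at 1.58, miR-151a-3p at 1.31 and miR-148b-3p at 0.61.

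The other arm of the MIR148A hairpin, miR-148a-5p, had too few counts to tell whether it shared the high value of shMCU replicate 3. Replicates 1, 2 and 3 of shNC held 5, 2 and 3 counts, and each shMCU library held 1. The exact 95% interval of its level in shMCU replicate 3, 1.97 to 433 CPM, covered the values of all the other libraries. In shMCU replicate 3 the 5p arm made up 0.0484% of the counts of both arms (exact 95% interval 0.00123% to 0.269%), and in shNC replicate 1 0.264% (0.0857% to 0.615%). Summed over libraries this share was 10 of 3800 in shNC, or 0.263% (0.126% to 0.483%), and 3 of 3747 in shMCU, or 0.0801% (0.0165% to 0.234%). The intervals overlapped and hold no spread between libraries. miR-148b-5p, the other arm of MIR148B, had 1 count each in shNC replicate 1 and shMCU replicate 2 and none elsewhere. In shMCU replicate 3 the exact 95% interval of its count of 0 reached up to 287 CPM. miR-152-5p was not in the tables.

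Another group of miRNAs carries the letters of the family's seed shifted by a base towards the 5′ end. Their RefSeq sequences (GRCh38.p14) are shown with the run of letters shared with the family seed in capitals, at bases 1 to 7, or at bases 2 to 7 in miR-454-3p.
miR-130b-3p: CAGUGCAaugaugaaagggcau
miR-301a-3p: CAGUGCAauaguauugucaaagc
miR-301b-3p: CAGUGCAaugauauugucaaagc
miR-454-3p: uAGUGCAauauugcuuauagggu
Together with miR-130a-3p, these 5 relatives were scarce, with 25 counts in shNC and 14 in shMCU libraries. The ratio of their summed shares was 1.10 (exact 95% interval 0.527 to 2.19), and 0 of 5 passed the filter on low counts. The most frequent, miR-130a-3p, had counts of 7, 1 and 3 over the shNC replicates and of 4, 3 and 1 over the shMCU replicates. For miR-454-3p these were 1, 3 and 3, and 2, 1 and 0, and for miR-130b-3p 5, 0 and 0, and 0, 1 and 2. miR-301a-3p and miR-301b-3p had 1 count each, both in shNC libraries. Such counts are too few to tell whether a relative was high in shMCU replicate 3.

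miRNAs of other tissues were tallied beside the miR-148a-3p result, since miR-148a is also a liver miRNA. Of 4 liver miRNAs looked up, 3 were listed, and all 3 had counts in both groups. Their summed level was 13837 to 25176 CPM in shNC and 24981, 38592 and 105451 CPM in shMCU replicates 1, 2 and 3. Nearly all of it was miR-122-5p, the dominant miRNA of hepatocytes, at 103663 CPM in shMCU replicate 3. miR-192-5p, another liver miRNA, was at 1789 CPM there, 1.36 times the median of the other libraries, which held 1257 to 1797 CPM. miR-194-5p had 0 counts in shMCU replicates 2 and 3. The summed level of blood cell miRNAs, with 7 of 8 listed, was 648 to 865 CPM in shNC and 476 to 1089 CPM in shMCU libraries. Muscle miRNAs (3 of 3 listed) summed to 439 to 2422 CPM in shNC and 340 to 1315 CPM in shMCU, and neural miRNAs (2 of 2 listed) to 86.5 to 648 CPM and 77.8 to 1293 CPM. Epithelial miRNAs (5 of 6 listed) summed to 376 to 2076 CPM in shNC and 340 to 1244 CPM in shMCU libraries. The part of liver-derived or serum-derived miRNA in the miR-148a-3p value of shMCU replicate 3 was not tested.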

How the data were processed

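Small RNA of exosomes was sequenced in 6 libraries, 3 shNC and 3 shMCU, grouped by sample title. The authors deposited raw read counts for each mature miRNA, which are whole numbers with a different total per library. Bowtie and hg19 are named in the submitters' processing notes; how mismatches were handled, how reads were counted and which miRNA release was used are not given there. Exosomes were isolated by polyethylene glycol precipitation with ultracentrifugation, per the labels' protocols.

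The members, lists, tests and naming rule were chosen with earlier results of these data known. The miRNAs named are the members, their other arms, relatives with a shifted seed, the 5 nearest patterns of each tested member, tissue markers, and miR-21-5p and miR-122-5p.

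The group comparison used edgeR 4.0.16 under R 4.3.3 (filterByExpr with a minimum count of 10, TMM, robust quasi-likelihood F test, group as the only term, threshold 0.05); SE is the log2 fold change over the square root of F. The test was also run on counts simulated from the mean levels and spread of these data, with no library standing apart. That run does not show how the test behaves with a library such as shMCU replicate 3. Printed CPM and shares use the total over all listed miRNAs and are not TMM-scaled, except where stated. Member ratios used a pseudocount of 0.5 for the log2 scale and exact permutation over 20 arrangements. Intervals are exact Clopper-Pearson. Alternatives were DESeq2 1.42.0, limma 3.58.1 voom with quality weights, other scalings and filters, a replicate block and each library left out. Sequences came from RefSeq tables, and hairpin positions from GENCODE release 29 on GRCh38, not the alignment's build; no coordinates were converted.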

Additional observations from a re-analysis of the deposited data

How the results depend on the processing

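All alternatives were planned. Of 76 recomputed values, 70 were rated the same, by a rule that differed between results. A fold change had to keep its sign and its side of the threshold, and a number of calls had to stay the same. A ratio had to keep only its sign, since its test could not pass 0.05. A difference in family share had to keep its sign and move by less than the larger SD. Its fall from 3.99 to 0.587 points without shMCU replicate 3 was therefore rated the same. At an adjusted p of 0.05, edgeR called 0 miRNAs, also with any library left out, DESeq2 called 1 (miR-122-5p) and edgeR without a filter called 1 (miR-375); the cause was not tested. Values that turned sign were those of miR-148b-3p with library totals alone (-0.018) and without shMCU replicate 3 (-0.13), and the log2 ratio of miR-148a-3p to miR-152-3p without shNC replicate 3 (0.47) or shMCU replicate 1 (0.41). With each library left out, the log2 fold change of miR-148a-3p ran from 0.28 to 1.44, that of miR-148b-3p from -0.13 to 0.37, the log2 ratio of miR-148a-3p to miR-148b-3p from 0.34 to 0.99, and that to miR-152-3p from -0.72 to 0.47. Adjusted p of miR-148a-3p ran from 0.16 to 0.99 by edgeR with a library left out and from 0.48 to 0.77 under the other settings. The labels state no pairing of libraries with equal replicate numbers. Deviations from group means correlated at 0.16, -0.35 and 0.08 for equal numbers and at -0.33 to 0.29 for unequal ones. With 3 libraries per group these values cannot decide whether a pairing exists. A replicate block gave a log2 fold change of 0.84 for miR-148a-3p and 0.18 for miR-148b-3p and no call. The 100-count filter removed miR-148b-3p. miR-152-3p, with at most 12 counts in a library, was below the filter, so its fold change was refitted only without a filter.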
